A study of Mus musculus with 12 samples.

Results

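The 9 genes described here encode structural proteins of the cardiac sarcomere and its thin filament: Ttn (titin), Mybpc3 (cardiac myosin-binding protein C), Tnnt2, Tnni3 and Tnnc1 (the cardiac troponins T, I and C), Tpm1 (tropomyosin 1), Myom1 and Myom2 (myomesin and M-protein) and Actn2 (alpha-actinin 2). They were taken by name from the 18079 genes of the expression table, a choice made with earlier results of these data known, and all 9 were found there and passed the filter on low values. Left ventricular muscle of 12 male C57BL/6 mice (C57BL/6J in the study's methods) was sequenced, 3 mice in each of 4 groups. Sham surgery was combined with DMSO (DMSO+Sham) or hispidulin (Hispidulin+Sham), and AB likewise (DMSO+AB and Hispidulin+AB). AB is banding of the descending aorta, which loads the heart with pressure, and sham mice were operated on without the band. Hispidulin, a plant flavone, was injected intraperitoneally at 20 mg/kg/day or replaced by its solvent DMSO, from the day before surgery until the hearts were taken 4 weeks later, at 12 weeks of age by the labels, which give 8 weeks at surgery.

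The sarcomere shortens when myosin of the thick filament pulls on actin of the thin filament. Calcium bound by troponin C moves the troponin complex and tropomyosin on actin and so frees the sites that myosin binds. Troponin I holds the thin filament in its blocked state at low calcium, and troponin T ties the complex to tropomyosin. Titin spans from the Z-disc to the M-band and gives the relaxed muscle its elasticity, cardiac myosin-binding protein C sits on the thick filament and tunes the cross-bridges, alpha-actinin 2 crosslinks actin at the Z-disc, and the myomesins link thick filaments at the M-band. Mutations in many of these genes cause inherited cardiomyopathy.

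Polyadenylated RNA was sequenced, and the values are FPKM, in which the fragments of a gene are divided by its exon length and by the mapped fragments of the library. They summed to between 535235 and 567027 in a mouse. The depth behind a value is unknown, since no read counts were analysed. The log2(FPKM + 1) of 11664 genes was fitted with limma over the 12 mice together, and all adjusted p-values below are Benjamini-Hochberg values over those genes. The banding genes Nppa, Nppb, Myh7 and Acta1 were all higher after AB when both treatments were averaged, and 3 of the 4 passed between DMSO+AB and DMSO+Sham. Of 11 skeletal muscle markers, 8 were under an FPKM of 1 in every mouse, among them Myh1, Myh2, Myh4, Tnnt3, Tnnc2 and Actn3. Of the 3 tested, 1 was higher and 1 lower in DMSO+AB than in DMSO+Sham, with a median log2 fold change of -0.13. Myl1 lay between 23.4 and 83.2 FPKM and was higher in DMSO+AB, at a mean of 69.1 ± 22.5 FPKM (SD, n = 3), than in DMSO+Sham, at 29.4 ± 5.23 (log2 fold change 1.16, adjusted p 0.0407 by limma). Tnni2 was lower, at 1.03 ± 0.422 against 2.80 ± 0.985 FPKM (log2 fold change -0.89, adjusted p 0.0269), and Mylpf lay between 0.49 and 1.48 FPKM without passing. Myl7, the atrial myosin light chain, reached 333, 67.5 and 42.3 FPKM in Hispidulin+Sham mouse 3, DMSO+AB mouse 2 and Hispidulin+AB mouse 3 and lay between 0.24 and 15.0 in the other 9. Calls with banding are therefore also given without those 3 libraries, the values for genes outside the 9 having been added after the data were seen. Without them Acta1 and Nppb still passed in the averaged comparison, with Nppa and Myh7 at adjusted p of 0.0815 and 0.195 by limma, and between DMSO+AB and DMSO+Sham Acta1 alone of the 4 did, with Myl1 at 0.188 and Tnni2 at 0.205. The animal numbers in the labels fall in a series that begins with 52 (3 sham and 2 AB mice), a series that begins with 67 (2 sham and 4 AB mice) and a single mouse numbered 1. What these series stand for is not stated. Whether AB and sham mice overlap within a series rests on these few mice, and the share of all genes without overlap there was not computed.

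Compared per length, the thin filament genes were among the most abundant transcripts of the heart. Over the 12 mice Tpm1 had a mean of 8857 ± 835 FPKM (SD, n = 12) and ranked 4 of all genes in the table. Tnnt2 followed with 6141 ± 595 FPKM, Tnni3 with 5621 ± 801 FPKM and Tnnc1 with 3727 ± 501 FPKM. Every mouse had more Tpm1 than any mouse had Tnnt2, whereas the ranges of Tnnt2 and Tnni3 overlapped almost fully, and the highest Tnnc1 (4448 FPKM) lay above the lowest Tnni3 (4182 FPKM). The Z-disc gene Actn2 and the thick filament gene Mybpc3 came next at 1113 ± 136 and 1027 ± 214 FPKM, with overlapping ranges. Myom1 had a mean of 375 ± 35.5 FPKM and Myom2 306 ± 56.6 FPKM, again with overlapping ranges. Ttn was lowest at 48.2 ± 5.71 FPKM, below every value of the other 8 genes. Together the 9 genes held 4.92% ± 0.47 (SD, n = 3) of the summed FPKM in DMSO+Sham and 4.82% ± 0.146 in DMSO+AB. With hispidulin it was 5.02% ± 0.275 for Sham and 4.96% ± 0.132 for AB, and these ranges overlapped. In whole muscle, fewer cardiomyocytes and less of a transcript per cardiomyocyte cannot be told apart.

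**Figure D1:**
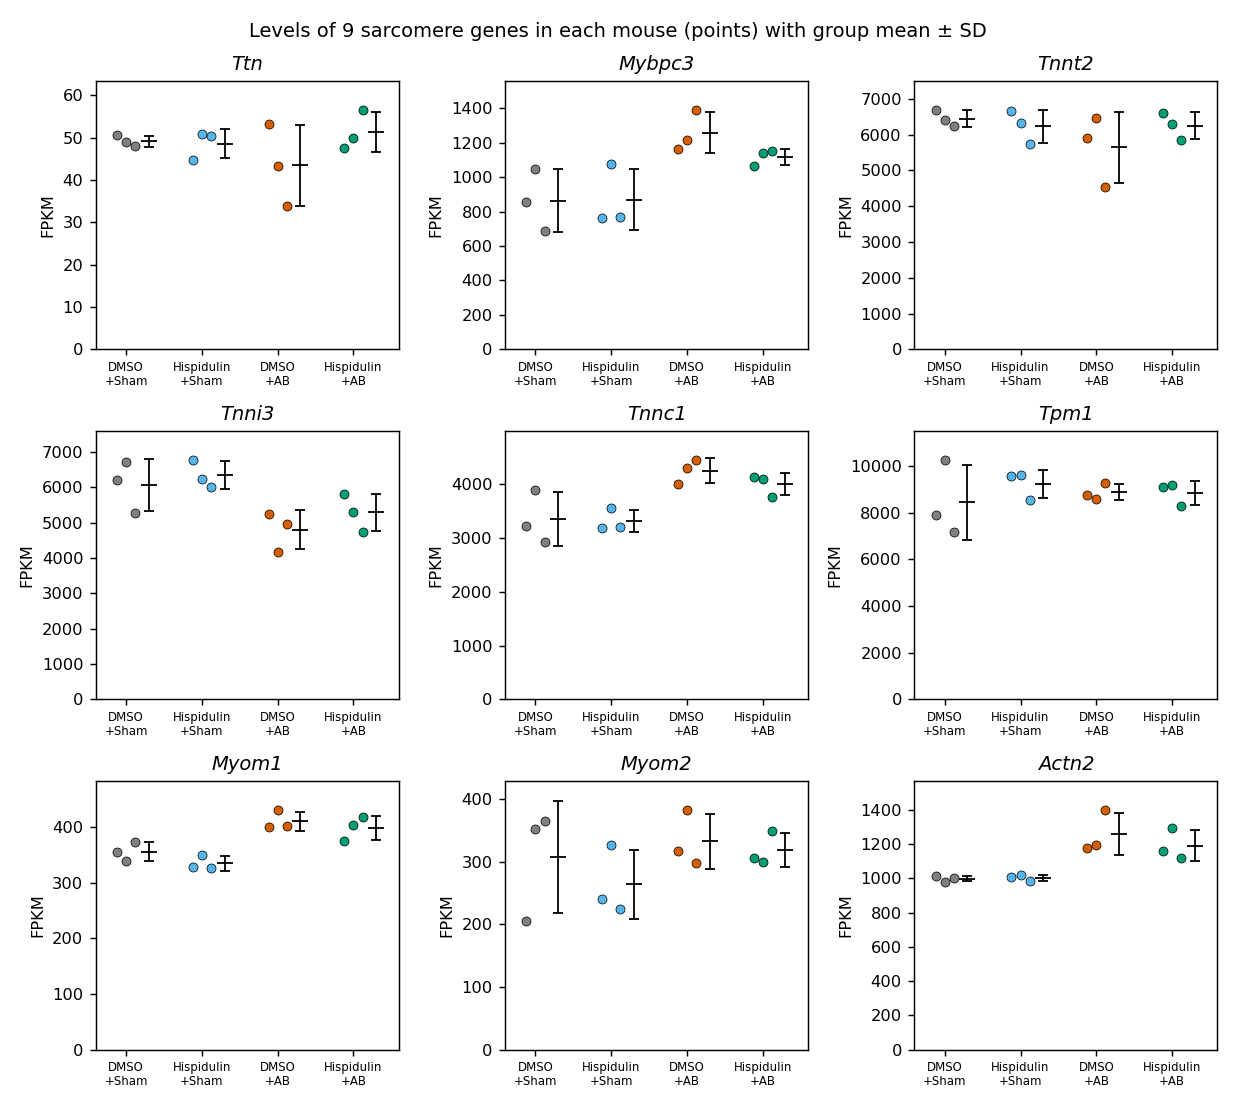
Level of each gene in every mouse in FPKM (y axis, from 0) for the 4 groups of 3 mice (x axis), with points for mice and bars for the group mean ± SD. The 6 AB mice lie above all 6 sham mice for Myom1 and Actn2, while Tpm1 and Ttn overlap throughout.

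Aortic banding went with moderate, mixed changes among these genes. Averaged over DMSO and hispidulin, 6 AB mice against 6 sham mice, 4 of the 9 rose: Mybpc3, Tnnc1, Actn2 and Myom1, by 37.1%, 23.9%, 22.4% and 17.2% of the sham mean FPKM. None of the 9 fell by the test, and Tnni3, with a mean 18.7% lower after AB, missed the threshold at an adjusted p of 0.0521. Among all genes tested, 3.52% were called higher and 3.87% lower in this comparison. Between DMSO+AB and DMSO+Sham alone, where 5.21% of all genes were called, 0 of the 9 passed in limma. At an unadjusted p under 0.05 there were 5 (Mybpc3, Tnnc1, Actn2 and Myom1 higher, Tnni3 lower), against 20.4% of all genes. Without the 3 libraries with high Myl7, 0 of the 9 passed in the averaged comparison, and the adjusted p of Actn2, Mybpc3, Tnnc1 and Myom1 became 0.115, 0.234, 0.182 and 0.281, with 73 genes called in all. Their fitted differences were then 0.32, 0.43, 0.32 and 0.18 on the log2 scale, against 0.29, 0.47, 0.31 and 0.23 with all 12 mice.

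The promoters of the 4 genes that rose and of Tnni3 are shown first, since these 5 had the largest fitted differences with banding. Each line gives the 250 bases ahead of the annotated start site, 5′ to 3′ on the gene's own strand, from RefSeq on GRCm38.p6. The windows lie at chr2:91117894-91118143 on the plus strand (Mybpc3), chr14:31208062-31208311 on the plus strand (Tnnc1), chr17:71019307-71019556 on the plus strand (Myom1), chr13:12340733-12340982 on the minus strand (Actn2) and chr7:4522529-4522778 on the minus strand (Tnni3). Capitals mark matches to any of 5 motifs searched on both strands.
Mybpc3: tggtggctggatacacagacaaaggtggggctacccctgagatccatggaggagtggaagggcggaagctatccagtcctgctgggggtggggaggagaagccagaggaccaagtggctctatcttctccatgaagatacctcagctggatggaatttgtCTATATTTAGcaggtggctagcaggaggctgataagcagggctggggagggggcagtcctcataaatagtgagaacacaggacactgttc
Tnnc1: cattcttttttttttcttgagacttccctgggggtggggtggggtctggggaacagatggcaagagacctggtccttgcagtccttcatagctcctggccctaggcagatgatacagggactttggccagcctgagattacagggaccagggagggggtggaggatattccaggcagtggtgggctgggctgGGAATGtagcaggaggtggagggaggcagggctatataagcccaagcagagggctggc
Myom1: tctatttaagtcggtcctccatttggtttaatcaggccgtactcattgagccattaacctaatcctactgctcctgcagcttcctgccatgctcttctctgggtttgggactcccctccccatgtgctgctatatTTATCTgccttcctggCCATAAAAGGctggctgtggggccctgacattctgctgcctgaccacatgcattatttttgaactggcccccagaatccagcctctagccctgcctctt
Actn2: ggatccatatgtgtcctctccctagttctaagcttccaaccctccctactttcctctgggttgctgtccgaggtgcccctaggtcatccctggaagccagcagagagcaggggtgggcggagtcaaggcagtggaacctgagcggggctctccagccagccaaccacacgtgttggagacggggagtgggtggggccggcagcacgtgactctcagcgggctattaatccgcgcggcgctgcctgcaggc
Tnni3: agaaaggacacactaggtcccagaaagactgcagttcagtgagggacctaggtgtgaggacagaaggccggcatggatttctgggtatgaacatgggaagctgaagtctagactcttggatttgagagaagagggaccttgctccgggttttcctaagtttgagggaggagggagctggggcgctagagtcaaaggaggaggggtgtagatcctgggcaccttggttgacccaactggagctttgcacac

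Motifs of muscle gene regulation were matched by their letters alone. The MCAT element (CATTCC), which TEAD factors bind, stood in Tnnc1 with its first base 58 bases ahead of the start site, read as GGAATG on the other strand. It also stood in the windows of Tpm1 and Tnnt2, so in 3 of 9 windows of the genes, against 12.6% of all 32851 windows. The GATA site (AGATAA) was matched in Myom1 and Tnnt2, 2 of 9 windows against 9.99% of all. The CArG box, the motif of serum response factor, was matched in Myom1 only, 99 bases ahead of its start, in 1 of 9 windows against 1.47% of all. The MEF2 site was matched in Mybpc3, 90 bases ahead, and in Ttn, 166 bases ahead, in 2 of 9 windows against 0.508% of all. The TATA box (TATAAA) was matched in 0 of 9 windows against 12.4% of all, and the Actn2 and Tnni3 windows held none of the 5 motifs. Matches of different motifs did not overlap in these windows. Windows were matched for 8 of the 9 genes, Tnnt2 with 2 windows, and Myom2 was not matched. These matches are letters in a short window and do not say whether a factor binds there.

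Among the thin filament genes, Tnnc1, the calcium sensor, was higher after AB. Its level was 3218, 3894 and 2919 FPKM in the DMSO+Sham mice, 3190, 3548 and 3207 in Hispidulin+Sham, 4005, 4301 and 4448 in DMSO+AB, and 4125, 4101 and 3766 in Hispidulin+AB. Only the second DMSO+Sham mouse reached into the AB range, and within either treatment the groups did not overlap. The averaged log2 fold change was 0.31 (SE 0.0757, 95% interval 0.15 to 0.48) with an adjusted p of 0.0287 by limma. It was 0.36 (SE 0.107) with DMSO and 0.27 (SE 0.107) with hispidulin, at adjusted p of 0.0799 and 0.632. Within the animal number series the difference was 0.21 on the log2 scale in series 52, where the groups overlapped, and 0.43 in series 67, where they did not. With the series in the model the adjusted p was 0.0651, and with no filter on low values it was 0.107. The call held in 4 of the 12 fits that each left out 1 mouse.

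Tnni3, the inhibitory subunit, ran the other way without passing the test. Its level was 6210, 6710 and 5272 FPKM in DMSO+Sham, 6773, 6234 and 6013 in Hispidulin+Sham, 5243, 4182 and 4961 in DMSO+AB, and 5810, 5304 and 4745 in Hispidulin+AB. Each AB group lay below the sham group of the same treatment, but 2 mice of Hispidulin+AB lay within the range of DMSO+Sham. The averaged log2 fold change was -0.30 (SE 0.0848, 95% interval -0.49 to -0.12). With the replicate number as a block, its adjusted p was 0.0393 by limma, and it was 0.0384 among genes with an FPKM of at least 5, 0.0298 after rescaling to TPM, 0.0221 after quantile normalization and 0.011 with library weights. Leaving out the 3 libraries with high Myl7 moved it to 0.266, and it passed in 2 of the 12 fits that each left out 1 mouse. In series 52 the difference was -0.44 without overlap and in series 67 -0.14 with overlap.

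Tnnt2 and Tpm1, the tropomyosin-binding troponin and tropomyosin itself, showed no difference that passed. Tnnt2 was 6691, 6408 and 6236 FPKM in DMSO+Sham, 6647, 6319 and 5737 in Hispidulin+Sham, 5909, 6468 and 4535 in DMSO+AB, and 6598, 6292 and 5846 in Hispidulin+AB. The third DMSO+AB mouse alone lay below all sham mice. Its averaged log2 fold change was -0.10 (95% interval -0.29 to 0.08), with an adjusted p of 0.523 by limma. In series 52 the difference was -0.33 without overlap and in series 67 it was 0.08 with overlap. Tpm1 was 7924, 10263 and 7158 FPKM in DMSO+Sham, 9562, 9619 and 8544 in Hispidulin+Sham, 8771, 8595 and 9253 in DMSO+AB, and 9118, 9201 and 8275 in Hispidulin+AB. All AB mice lay inside the sham range when the series were pooled. Within the series the groups did not overlap and the directions were opposed, -0.16 in series 52 and 0.19 in series 67. Its averaged log2 fold change was 0.01 (95% interval -0.17 to 0.20), with an adjusted p of 0.949, and its sign changed under TPM and quantile normalization. The values are per gene, so isoforms of tropomyosin, troponin T or titin were not separated.

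Ratios taken within a mouse compare thin filament genes without any scaling between libraries. The Tnnc1 to Tnni3 ratio was 0.518, 0.580 and 0.554 in DMSO+Sham and 0.471, 0.569 and 0.533 in Hispidulin+Sham. It was 0.764, 1.03 and 0.897 in DMSO+AB and 0.710, 0.773 and 0.794 in Hispidulin+AB. Every AB mouse lay above every sham mouse, with medians of 0.783 and 0.543. The Tnnc1 to Tpm1 ratio was also higher in all AB mice, 0.446 to 0.500 against 0.334 to 0.408 in sham mice. The Tnnt2 to Tnnc1 ratio lay between 1.02 and 1.60 after AB and between 1.65 and 2.14 in sham mice, and the Tnni3 to Tpm1 ratio between 0.487 and 0.637 against 0.648 and 0.784. By contrast the ratios of Tnnt2 to Tnni3 and of Tnnt2 to Tpm1 overlapped between AB and sham. A ratio shows unequal change of its 2 genes and not which of them changed. Each ratio without overlap holds Tnnc1 or Tnni3, so these ratios restate the levels of those genes given above. How often ratios of other gene pairs separate AB from sham mice was not computed.

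**Figure D2:**
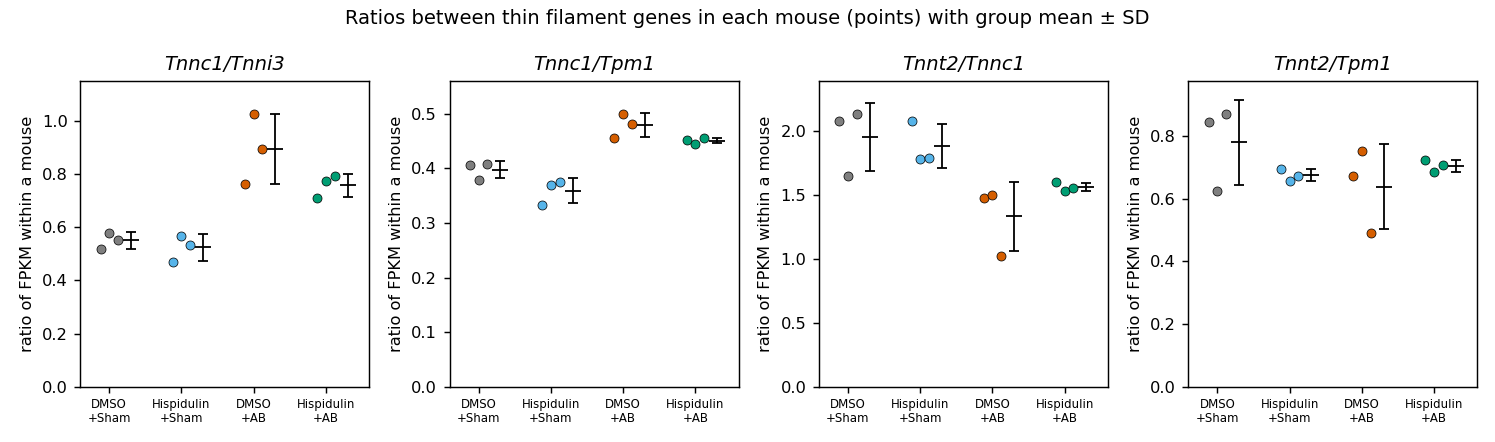
Ratio of FPKM between 2 thin filament genes within each mouse (y axis, no unit, from 0) for the 4 groups of 3 mice (x axis), with points for mice and bars for the group mean ± SD. The Tnnc1 to Tnni3 ratio is 0.710 or more in all 6 AB mice and 0.580 or less in all 6 sham mice, while Tnnt2 to Tpm1 overlaps.

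On the thick filament, Mybpc3 had the largest fitted difference with banding of the 9 genes. It stood at 857, 1049 and 686 FPKM in DMSO+Sham, 764, 1074 and 769 in Hispidulin+Sham, 1164, 1217 and 1392 in DMSO+AB, and 1066, 1140 and 1151 in Hispidulin+AB. The second mouse of either sham group was the highest of its group, and only Hispidulin+Sham mouse 2 reached the AB range, just above the lowest Hispidulin+AB mouse. The averaged log2 fold change was 0.47 (SE 0.114, 95% interval 0.22 to 0.72) with an adjusted p of 0.0293 by limma. With DMSO it was 0.56 (SE 0.162, adjusted p 0.0696) and with hispidulin 0.38 (SE 0.162, adjusted p 0.658). Both animal number series gave AB mice above sham mice without overlap, by 0.41 in series 52 and 0.66 in series 67 on the log2 scale. Series 52 held 3 sham and 2 AB mice and series 67 held 2 and 4, so few mice stand behind this. The adjusted p was 0.0613 with no filter on low values and 0.0572 after quantile normalization, and the call held in 4 of the 12 fits that each left out 1 mouse.

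Ttn, the elastic filament, was 50.6, 48.9 and 48.1 FPKM in DMSO+Sham, 44.7, 50.8 and 50.4 in Hispidulin+Sham, 53.2, 43.3 and 33.9 in DMSO+AB, and 47.6, 50.1 and 56.6 in Hispidulin+AB. The DMSO+AB group held 1 value above all sham values and 2 below them, and its SD of 9.65 FPKM was the widest of the 4 groups. The averaged log2 fold change was -0.06 (95% interval -0.28 to 0.16), with an adjusted p of 0.771 by limma. Without DMSO+AB mouse 3 it was 0.02.

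At the Z-disc, Actn2 gave the smallest limma p-value of the 9 genes in the averaged banding comparison. It was 1012, 981 and 1004 FPKM in DMSO+Sham and 1007, 1018 and 984 in Hispidulin+Sham, an SD of 16.5 and 17.3 FPKM. It was 1179, 1194 and 1400 in DMSO+AB and 1163, 1293 and 1120 in Hispidulin+AB. The 6 sham mice lay close together and below all 6 AB mice. The averaged log2 fold change was 0.29 (SE 0.0628, 95% interval 0.15 to 0.42) with an adjusted p of 0.0194 by limma, and it was 0.33 with DMSO and 0.25 with hispidulin (adjusted p 0.0555 and 0.594). Within series 52 it was 0.32 and within series 67 it was 0.28, in both without overlap. Its adjusted p was 0.0538 when the series of animal numbers entered the model and 0.0532 after quantile normalization, and the call held in 11 of the 12 fits that each left out 1 mouse.

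At the M-band, Myom1 rose and Myom2 did not pass. Myom1 was 356, 339 and 373 FPKM in DMSO+Sham, 329, 351 and 327 in Hispidulin+Sham, 399.9, 431 and 402 in DMSO+AB, and 376, 403 and 418 in Hispidulin+AB. All AB mice lay above all sham mice, the lowest of them by a narrow margin. Its averaged log2 fold change was 0.23 (SE 0.0566, 95% interval 0.10 to 0.35) with an adjusted p of 0.0318 by limma, and it was 0.27 in series 52 and 0.20 in series 67. With the series in the model its adjusted p was 0.0882, after rescaling to TPM 0.0555, after quantile normalization 0.117 and with no trend 0.0535. The call held in 4 of the 12 fits that each left out 1 mouse. Myom2 was 205, 353 and 365 FPKM in DMSO+Sham, 242, 326 and 224 in Hispidulin+Sham, 317, 383 and 299 in DMSO+AB, and 306, 300.5 and 350.2 in Hispidulin+AB. Its sham mice spread more widely than its AB mice, which lay within or just above their range. The averaged log2 fold change was 0.22 (95% interval -0.10 to 0.54), with an adjusted p of 0.414.

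**Figure D3:**
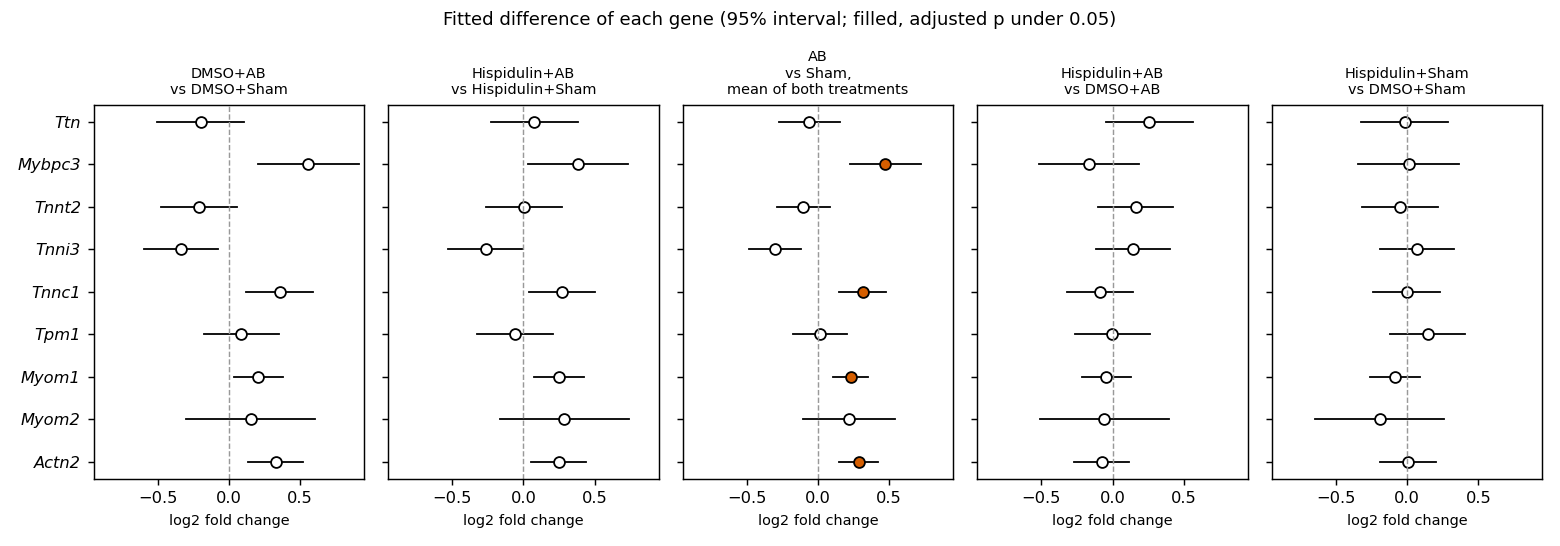
Fitted log2 fold change of each gene (x axis, log2(FPKM + 1) scale) with its 95% interval in 5 comparisons, filled where the adjusted p was under 0.05. In the averaged banding comparison Mybpc3, Tnnc1, Myom1 and Actn2 are filled, at 0.47, 0.31, 0.23 and 0.29, and no gene is filled elsewhere.

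Each gene was also tested alone. In an exact two-sided permutation test of the averaged banding difference, with AB and sham exchanged within a treatment in all 400 ways, Tnni3, Tnnc1, Myom1 and Actn2 reached 0.005, the smallest p this design allows, as did 7.52% of all genes tested. Mybpc3 gave 0.01, a value that 11.1% of all genes reached or went below. The others gave 0.21 (Myom2), 0.33 (Tnnt2), 0.645 (Ttn) and 0.875 (Tpm1), and all these p-values are unadjusted. Counted by mice, 5 of the 9 genes did not overlap between DMSO+AB and DMSO+Sham, against 17.9% of all genes tested: Mybpc3, Tnnc1, Myom1 and Actn2 were above and Tnni3 below. Between Hispidulin+AB and Hispidulin+Sham 4 of the 9 did not overlap, against 20.9% of all genes, with Tnnc1, Myom1 and Actn2 above and Tnni3 below. Of all 6 AB against all 6 sham mice, 2 of the 9 did not overlap, Myom1 and Actn2, against 4.96% of all genes.

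Whether hispidulin changed these genes after banding was asked by Hispidulin+AB against DMSO+AB, the comparison at the centre of the study. There 0 of the 9 genes and 0% of all genes passed in limma, and at an unadjusted p under 0.05 it was 0 of the 9 against 3.1% of all. Ttn had the largest difference, 0.26 (SE 0.14, 95% interval -0.05 to 0.56), from a mean of 43.5 ± 9.65 FPKM to 51.4 ± 4.68 (SD, n = 3), and an adjusted p of 0.996. Mybpc3 differed by -0.17 (95% interval -0.52 to 0.19) and was the only gene of the 9 without overlap, its 3 Hispidulin+AB mice lying below the 3 DMSO+AB mice, against 7.88% of all genes. Tnnt2 differed by 0.16 (95% interval -0.10 to 0.43) and Tnni3 by 0.14 (95% interval -0.12 to 0.40). Tnnc1, Myom1, Myom2 and Actn2 differed by -0.09, -0.04, -0.06 and -0.08, and Tpm1 by less than 0.01. A p that misses the threshold does not show that the groups were alike, and all these intervals except those of Myom1 and Actn2 hold an opposite difference as large as the averaged banding difference of their gene.

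Without banding, hispidulin gave no call either. Between Hispidulin+Sham and DMSO+Sham 0 of the 9 genes and 0% of all genes passed in limma, 287 genes (2.46%) had an unadjusted p under 0.05, and 0 of the 9 genes were without overlap against 5.6% of all. The fitted differences of the 9 genes lay between -0.19 (Myom2, 95% interval -0.65 to 0.26) and 0.14 (Tpm1, 95% interval -0.12 to 0.41). Banding in hispidulin-treated mice, Hispidulin+AB against Hispidulin+Sham, also gave 0 of the 9 genes and 0% of all genes in limma. At an unadjusted p under 0.05 it was 5 of the 9 (Mybpc3, Tnnc1, Actn2 and Myom1 higher, Tnni3 lower) and 847 of all (7.26%), and 17 genes but still 0 of the 9 with the replicate block. The test of the difference itself, the interaction of hispidulin and AB, gave 0 of the 9 genes and 0% of all, with 2.48% of all at an unadjusted p under 0.05. Its estimates for the 9 genes lay between -0.18 (Mybpc3, 95% interval -0.67 to 0.32) and 0.27 (Ttn, 95% interval -0.16 to 0.71). The comparisons share groups of mice, so their values are given side by side and not correlated.

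The genes were also compared with each other over the 12 mice, in 36 pairs. Of these, 5 had an adjusted p under 0.05 by both Pearson's r and Spearman's rho, from permutation tests adjusted over the 36 pairs. Mybpc3 and Tnnc1 went together, with r = 0.95 and rho = 0.867 (permutation p 2e-05 and 0.00053, adjusted 0.00054 and 0.00954), and r = 0.90 without the 2 mice farthest from the median of Mybpc3. Tnni3 and Myom1 were opposed, with r = -0.92 and rho = -0.874 (permutation p 3e-05 and 0.00037, adjusted 0.00054 and 0.00954), and r = -0.89 without 2 mice. The other pairs joined Actn2 with Mybpc3 (r = 0.78), Tnnc1 (r = 0.81) and Myom1 (r = 0.77).

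Part of this follows the groups. After the group means were taken out, r was 0.85 for Mybpc3 and Tnnc1 and -0.85 for Tnni3 and Myom1, but 0.25, 0.25 and -0.06 for the 3 pairs with Actn2. Among the 6 sham mice alone r was 0.92 for Mybpc3 and Tnnc1 (exact permutation p = 0.00972, adjusted 0.233) and -0.71 for Tnni3 and Myom1 (exact permutation p = 0.1). Without the 2 sham mice farthest from the median of the first gene, r was 0.85 for Mybpc3 and Tnnc1 but 0.15 for Tnni3 and Myom1, so the opposed course of this pair among sham mice rests on those 2 mice. Among the 6 AB mice these values were 0.64 (exact permutation p = 0.154) and -0.96 (exact permutation p = 0.00972, adjusted 0.233), and 0.69 and -0.82 without the 2 farthest AB mice. Over the 72 relations within sham or AB, 0 passed after adjustment and 7 had an unadjusted p under 0.05. All pairs share the scaling of their library.

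**Figure D4:**
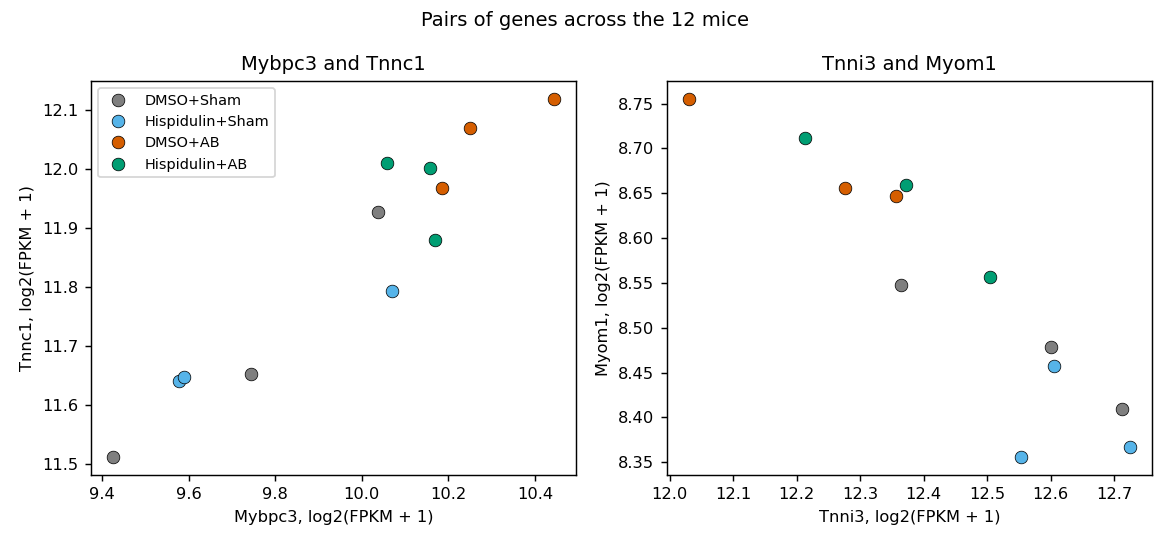
Level of Mybpc3 against Tnnc1 and of Tnni3 against Myom1 in each of 12 mice, both axes in log2(FPKM + 1), with colours for the 4 groups. The first pair rises together (r = 0.95) and the second runs opposite (r = -0.92). AB and sham mice lie toward different ends of both plots, but of these genes only Myom1 does not overlap between them.

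Paralogs of the 9 genes, most of them known from skeletal muscle, smooth muscle or non-muscle cells, were followed beside them. Of 17 listed, 12 passed the filter, and averaged over both treatments 3 rose and 1 fell. Mybpc2, the fast skeletal form of myosin-binding protein C, rose by 1.10 on the log2 scale (SE 0.163, adjusted p 0.00379), from 5.41, 11.2 and 7.58 FPKM in DMSO+Sham and 4.53, 8.62 and 7.35 in Hispidulin+Sham to 14.8, 16.7 and 17.8 in DMSO+AB and 16.6, 15.4 and 18.0 in Hispidulin+AB. The AB and sham mice did not overlap. Actn1, the non-muscle alpha-actinin, rose by 0.61 (adjusted p 0.0149) and Tpm2, beta-tropomyosin, by 0.60 (adjusted p 0.0256), its sham mice lying between 10.5 and 14.5 FPKM and its AB mice between 15.5 and 26.7. Tnni2, the fast skeletal troponin I, fell by 0.67 (adjusted p 0.0156), with sham mice between 1.81 and 3.78 FPKM and AB mice between 0.66 and 1.67. Without the 3 libraries with high Myl7, 0 of 11 paralogs tested passed, and the adjusted p was 0.073 for Mybpc2, 0.159 for Actn1, 0.112 for Tpm2 and 0.171 for Tnni2, with differences of 1.10, 0.60, 0.70 and -0.66. The median of the 12 was 0.17, against 0.22 for the 9 genes and -0.03 for all genes tested. No exact run of 50 bases was shared between transcripts of the 9 genes and those of their paralogs, except 2 runs between Actn2 and Actn3, which are 0.0526% of those of Actn2.

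Other sarcomere genes were followed in the same way. Of 47 listed, 44 were tested, and in the averaged comparison 17 rose and 2 fell, with a median of 0.23, against 4 that rose of the 9 genes and a median of 0.22. Acta1, skeletal alpha-actin, rose by 3.57 on the log2 scale, from a sham mean of 305 to an AB mean of 4044 FPKM (adjusted p 0.000404). Ankrd2 and Ankrd1, ankyrin repeat proteins that bind titin, rose by 2.47 and 1.76, and Myh7, the slow myosin heavy chain, by 1.93. Xirp2 and Synpo2l, proteins of the intercalated disc and Z-disc, rose by 1.85 and 1.84, Flnc (filamin C) by 1.52 and Fhl1 by 1.42. Xirp1, a relative of Xirp2, rose by 1.48, and Ankrd23, another titin-binding ankyrin repeat protein, rose from a sham mean of 187 to an AB mean of 439 FPKM. These are the 10 largest changes of the list. The 2 that fell, named here after their values were seen, were Mylk3, the cardiac myosin light chain kinase, by 0.49, and Cmya5 (myospryn) by 0.47. Without the 3 libraries with high Myl7, 8 of the 44 rose and 0 fell, the 8 being Acta1, Ankrd1, Ankrd2, Ankrd23, Csrp3, Fhl1, Synpo2l and Xirp2. Between DMSO+AB and DMSO+Sham 10 of the 44 rose and 2 fell, against 292 higher and 316 lower of all 11664 genes tested. The median was 0.36, against 0.15 for the 9 genes. Without the 3 libraries with high Myl7, 5 of the 44 rose and 0 fell in this comparison, with 20 of all genes called.

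Regulators of sarcomere assembly, turnover and splicing were the last list. Of 22 listed and tested, 0 rose and 2 fell in the averaged comparison, with a median of -0.04. Rbfox1, a splicing factor, fell by 0.74 (SE 0.143, adjusted p 0.012), with sham mice between 10.7 and 13.2 FPKM and AB mice between 4.33 and 9.06. Tbx5, a cardiac transcription factor, fell by 0.61 (SE 0.127, adjusted p 0.0163). Without the 3 libraries with high Myl7 neither passed, at adjusted p of 0.162 for both and differences of -0.59 for both. All these lists were tested in the same fit as the 9 genes, in which 7.39% of all genes passed.

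**Figure D5:**
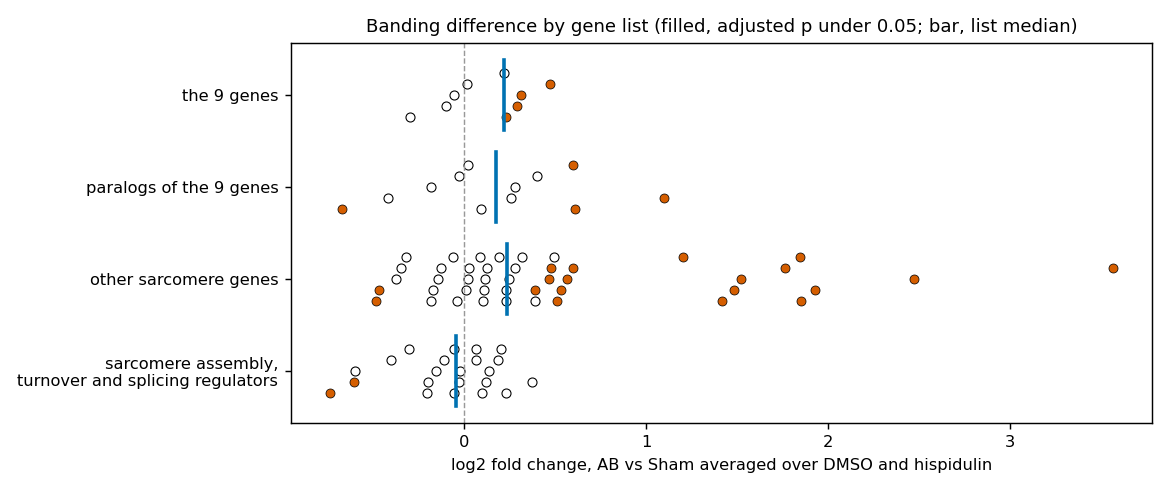
Fitted log2 fold change of AB against sham, averaged over DMSO and hispidulin (x axis, log2(FPKM + 1) scale), with a point for each tested gene in 4 lists (y axis), filled where the adjusted p was under 0.05, and a bar at each list's median. The medians are 0.22 for the 9 genes, 0.17 for their paralogs, 0.23 for other sarcomere genes and -0.04 for regulators, and Acta1 lies farthest right at 3.57.

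Markers of other cells moved in the same comparison. Of 8 fibroblast markers 4 rose, with a median of 0.85, and their summed level was 346 to 448 FPKM in DMSO+Sham, 354 to 483 in Hispidulin+Sham, 406 to 987 in DMSO+AB and 407 to 656 in Hispidulin+AB. Of 12 cardiomyocyte markers outside the sarcomere 0 rose and 4 fell (Atp2a2, Hrc, Pln and Ryr2), with a median of -0.09, and their sums overlapped at 29971 to 35478 FPKM in DMSO+Sham and 32094 to 33751 in DMSO+AB. Of 7 endothelial and 7 macrophage markers 0 were called, and of 7 smooth muscle and pericyte markers 1 rose (Tagln). Without the 3 libraries with high Myl7, 0 fibroblast and 0 cardiomyocyte markers passed, with medians of 0.79 and -0.07, and 1 smooth muscle marker rose (Cnn1). Of 5 erythroid markers 0 were called, with sums from 2237 to 10251 FPKM, the highest in a Hispidulin+Sham mouse. The part of these cells in the values of the 9 genes was not tested.

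For each gene, the 1 gene of the table whose log2(FPKM + 1) followed it most closely over the 12 mice was found by Pearson's r, as a description. Sdhc, a subunit of succinate dehydrogenase, was nearest to Tnni3 (r = 0.96), Tbxa2r, the thromboxane receptor, to Tnnc1 (r = 0.97), Myo5b to Mybpc3 (r = 0.96), Cystm1 to Actn2 (r = 0.96) and Map3k14 to Myom1 (r = 0.94). For Tpm1 it was Polr1e (r = 0.95), for Ttn Ccnt2 (r = 0.93), for Tnnt2 Ccdc167 (r = 0.90) and for Myom2 Creb3l1 (r = 0.86). With the mean of all 9 genes, each centred on its own mean, Ccnd1 (r = 0.88), Tceal7 (r = 0.86), Wipf1 (r = 0.85) and Stc1 (r = 0.85) were among the closest. These are the extremes of 11664 genes over 12 mice that share their groups and library scaling.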

How the data were processed

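RNA of 12 left ventricles was sequenced by the authors as single-end 50-base reads on a BGISEQ-500, and they deposited 1 table of FPKM, scaled by transcript length and mapped reads. The submitters' processing notes name HISAT2 2.0.4, Bowtie2 2.2.5, RSEM 1.2.12 and DESeq2 1.4.5 without their roles, and the build is not given in the sources used here. The table holds no read counts from which the counting error could be estimated. Ratios of low values to a gene's lowest value lay within 0.1 of a whole number in 20.8% of cases against 20% if evenly spread, so depth was not recovered. Groups came from the labels. Symbols were matched by gene identifier to the RefSeq table of GRCm38.p6 for 17947 genes (99.3%).

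Genes that reached an FPKM of 1 in 3 or more of the 12 libraries were tested with limma 3.58.1 in R 4.3.3 on log2(FPKM + 1), with 1 mean per group, 8 error degrees of freedom, eBayes with a trend and Benjamini-Hochberg adjustment over 11664 genes, two-sided, and the code was tested on simulated data. A fold change on this scale understates that of low genes. The members and lists were chosen with earlier results of these data known. Named were the 9 genes, their tested paralogs, and the 10 largest changes per list among genes past the threshold, besides a few named after their values were seen. Spearman correlations within a group were 0.968 to 0.986, no libraries were identical, and p-values measure the spread between these mice, 1 library each. Each replicate number stands for another animal in each group. Residuals of same-numbered libraries correlated above 0.1 in all 3 pairs of Hispidulin+AB with Hispidulin+Sham (0.147, 0.197 and 0.228) and of Hispidulin+Sham with DMSO+Sham (0.126, 0.33 and 0.232). The correlations were 0.3, 0.176 and -0.183 for Hispidulin+AB with DMSO+AB, and -0.0239, -0.0443 and -0.198 for DMSO+AB with DMSO+Sham. The fits reported carry no replicate block, and the blocked fit is an alternative. Alternatives were 0.1 in place of 1, no filter or a minimum FPKM of 5, median-of-ratios, TPM and quantile scaling, no trend, library weights, the animal number series as covariate, the replicate block, only the libraries compared, no libraries with high Myl7, and each mouse left out. The fit without high Myl7 was extended to the listed genes after the data were seen. Correlations used permutation tests written with NumPy 2.4.6, with ranks from SciPy 1.17.1, and 100000 resamples for 12 mice or all 720 orders for 6.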

Additional observations from a re-analysis of the deposited data

How the results depend on the processing

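Directions of the 5 genes with the largest banding difference (Mybpc3, Tnnc1, Actn2, Myom1 and Tnni3) held in the averaged comparison under all 23 alternatives run, and Actn2 passed in 19 of them, Mybpc3 and Tnnc1 in 12, Myom1 in 10 and Tnni3 in 7. Of the 9 genes, 4 passed there as reported, 2 with no filter on low values, 2 after quantile normalization, 1 with the animal number series as covariate, 0 without the 3 libraries with high Myl7, and 0 to 5 with each mouse left out. It was 0 without Hispidulin+AB mouse 2 and 1 without DMSO+Sham 1, Hispidulin+Sham 1 or 3, DMSO+AB 2, or Hispidulin+AB 1 or 3. Over all genes that count was 862 as reported, 2535 with library weights, 547 with the series covariate, 73 without the high-Myl7 libraries and 373 to 1210 with each mouse left out.

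Between DMSO+AB and DMSO+Sham the count over all genes was 608 as reported, 383 with no filter, 1423 with library weights, 142 with the series covariate, 11 with only the libraries compared, 20 without the high-Myl7 libraries and 91 to 1050 with each mouse left out, and of the 9 genes 1 passed among genes with an FPKM of at least 5, 2 with library weights and 0 to 2 with each mouse left out. Between Hispidulin+AB and Hispidulin+Sham it was 0 as reported, 2 with no filter, 2 with median-of-ratios scaling, 3 after quantile normalization, 209 with library weights, 17 with the replicate block, 51 with only the libraries compared and 0 to 10 with each mouse left out. Between Hispidulin+AB and DMSO+AB it was 2 with no filter and 0 to 20 with each mouse left out, and the interaction gave 0 to 3. Among the 9 genes the block changed only the call of Tnni3 in the averaged comparison. The causes were not tested. With no depth known, no limit of detection can be given, and 3 mice a group leave wide intervals.

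Sign changes were found among fitted log2 differences that did not pass. With each mouse left out, the averaged banding difference ranged from -0.14 to 0.021 for Ttn and from -0.042 to 0.088 for Tpm1. With DMSO it was -0.024 to 0.24 for Tpm1 and -0.12 to 0.30 for Myom2, and with hispidulin -0.055 to 0.051 for Tnnt2. For Hispidulin+AB against DMSO+AB the range was -0.030 to 0.047 for Tpm1, -0.13 to 0.047 for Myom2 and -0.14 to 0.0036 for Actn2. For Hispidulin+Sham against DMSO+Sham it was -0.050 to 0.040 for Ttn, -0.15 to 0.16 for Mybpc3, -0.098 to 0.0086 for Tnnt2, -0.028 to 0.15 for Tnni3, -0.096 to 0.11 for Tnnc1 and -0.0075 to 0.019 for Actn2. The interaction ranged from -0.023 to 0.17 for Tnni3, -0.20 to 0.0076 for Tnnc1 and -0.012 to 0.40 for Myom2.

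Median-of-ratios scaling turned Tpm1 between the AB groups to 0.0069 and Tnnc1 between the sham groups to 0.0097. TPM turned Tpm1 to 0.0087 between the AB groups and -0.0057 in the averaged comparison, Tnnt2 to -0.0026 for banding with hispidulin, and Mybpc3 and Actn2 to -0.0047 and -0.0097 between the sham groups. Quantile normalization turned Tpm1 to -0.11 for banding with DMSO, to -0.075 in the averaged comparison and between the sham groups and to 0.075 in the interaction, Ttn to 0.0042 between the sham groups and Tnnc1 to 0.15 in the interaction. Library weights turned Tpm1 to 0.027 between the AB groups, Tnnc1, Myom2 and Actn2 to 0.040, 0.24 and -0.00066 between the sham groups, and Myom1 and Myom2 to -0.014 and -0.39 in the interaction. The series covariate turned Myom2 to -0.10 for banding with DMSO, Tnnt2 to -0.030 for banding with hispidulin, and Ttn and Mybpc3 to 0.017 and -0.028 between the sham groups. Without the high-Myl7 libraries Tnnt2 was -0.0084 for banding with hispidulin, Tpm1 0.024 between the AB groups, and Tnnt2 and Tnnc1 0.0086 and 0.020 between the sham groups.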
